A study of Mus musculus with 10 samples.

Results

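A pair of small enzyme groups was followed in the forebrains of mouse embryos: the ketone body enzymes Bdh1, Bdh2 and Oxct1, and the 17-beta-hydroxysteroid dehydrogenases Hsd17b4, Hsd17b7, Hsd17b8, Hsd17b10, Hsd17b11 and Hsd17b12. These 9 genes were 9 of 19938 with a probe set of their own on the array. The group was chosen by the measured differences of Bdh2 and Hsd17b11 between transgenic and control embryos, to which relatives were added by name. Differences between the groups are therefore given for the members as a description, with the fit's adjusted p as the value that led to their choice, and they support nothing further. Of the 9, 8 were found by symbol, and Hsd17b8 was found through the RefSeq entry that lists it as a synonym of H2-Ke6. Each gene had 1 probe set, and all 9 lay above the 40th percentile of mean intensity used as a filter on dim genes. That mean included the transgenic arrays, and Bdh2 and Hsd17b11 lay only at percentiles 48.3 and 46.9. Their control means of 5.04 and 5.15 were below the lowest array median of 5.36.

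RNA was taken from one side of the forebrain of 10 embryos at E12.5, each measured on its own array, from a mixed CD1/NMRI background. The 5 embryos titled dtg, annotated as transgenic, carried constitutively active FoxO3, a forkhead transcription factor normally held in the cytoplasm when insulin signalling is active, under the CaMKIIa promoter, which is described as specific for the forebrain. The 5 embryos titled stg were annotated as controls. The labels leave both abbreviations unexplained, do not say which transgene the controls carry, and do not say which of 2 dams an embryo came from, so litter and group could not be separated. In bulk tissue, a change in the number of cells that express a gene and a change in RNA per cell cannot be told apart.

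The deposited values were log2 intensities, with array medians from 5.36 to 5.39. Foxo3 itself ranged from 6.76 to 7.13 in transgenic and from 6.50 to 6.87 in control embryos, a difference of 0.34 ± 0.085 (SE, n = 5 per group; limma adjusted p = 0.218), and its probes may not cover the transgene. The forebrain regulators Emx1 and Emx2 read 6.75 to 7.90 and 6.90 to 8.08 over the 10 arrays. Dlx2 ranged more widely, from 5.11 to 8.32, and Six3 read 5.66 to 6.08. Between the groups the log2 differences were -0.37 ± 0.17 for Emx1 and -0.20 ± 0.18 for Emx2. They were -0.26 ± 0.52 for Dlx2 and 0.10 ± 0.084 for Six3. None of 16 neuron or 14 radial glia markers lay below the 25th percentile of genes by mean intensity. Radial glia marker means ran from 8.60 to 8.74 in transgenic and from 8.69 to 8.76 in control embryos, a mean difference of -0.066. Of these 14 markers 5 were higher and 9 lower in the transgenic group, none passed in limma, and 1 had non-overlapping groups, downward. Control embryo 5 stood apart, with a neuron marker mean of 7.47 against 8.41 to 8.68 in the other controls and a mesenchyme marker mean of 7.82 against 6.07 to 6.83. Markers of thalamus, hypothalamus and midbrain were called border markers, on the untested assumption that they mark the edge of the dissection. Border marker means ran from 6.14 to 6.62 in transgenic and from 5.22 to 6.29 in control embryos. In 4 of 5 transgenic embryos the border mean lay above all controls. Of these 15 border markers 12 were higher and 3 lower in the transgenic group, and 1 lay below the 25th percentile of genes. Their log2 differences ran from -0.25 to 2.26, and their mean differed by 0.63, or by 0.49 without control embryo 5. None passed in limma, and 8 had an unadjusted limma p below 0.05, against 7.58% of all genes. Groups did not overlap for 2 of them, against 1.6% of all genes. The part of these markers in the member differences was not tested; fits with a marker mean as a covariate are given beside the genes whose value or call they moved.

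Ketone bodies are small acids that the liver makes from fat and that brain and other tissues burn, mainly before weaning and in fasting. Bdh1 interconverts hydroxybutyrate and acetoacetate in mitochondria, Oxct1 activates acetoacetate for use there, and Bdh2 is a cytosolic dehydrogenase of hydroxybutyrate that has also been studied as the source of a siderophore-like iron carrier. The Hsd17b enzymes are named for steroids but differ widely in substrate. Hsd17b4 is the bifunctional enzyme of peroxisomal beta-oxidation, Hsd17b7 a reductase of cholesterol synthesis, Hsd17b8 a mitochondrial ketoacyl reductase subunit, Hsd17b10 an enzyme of isoleucine breakdown and a subunit of mitochondrial RNase P, Hsd17b11 a lipid droplet protein, and Hsd17b12 the ketoacyl reductase of very-long-chain fatty acid elongation. All but Oxct1, a transferase, and the multifunctional Hsd17b4, which joins such a domain to others, are plain short-chain dehydrogenases.

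Because FoxO3 binds DNA through its forkhead domain, the 250 bases before each annotated start were searched for forkhead words on both strands: the word GTAAACA, the word ATAAACA, the word GCAAACA and the word ACAAACA. The words were chosen after the differences were known. RefSeq windows of GRCm38.p6 were found for 8 of the 9 genes, all but Hsd17b4 (9 windows, Bdh1 having 2). Of these, 3 windows held a word, those of Bdh2, Hsd17b11 and the upstream start of Bdh1, while 15.7% of all 32851 windows of this length did. They are shown because they contain the 2 genes that rose and 1 that did not pass; capitals mark the words, and each sequence runs 5′ to 3′ on the gene's strand.

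Bdh2, chr3:135280971-135281220, plus strand: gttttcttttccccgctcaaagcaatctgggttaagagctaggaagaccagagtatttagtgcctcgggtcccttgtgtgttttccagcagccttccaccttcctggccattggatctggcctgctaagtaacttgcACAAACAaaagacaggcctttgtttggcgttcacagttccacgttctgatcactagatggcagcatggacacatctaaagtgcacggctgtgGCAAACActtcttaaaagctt

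Hsd17b11, chr5:104021797-104022046, minus strand: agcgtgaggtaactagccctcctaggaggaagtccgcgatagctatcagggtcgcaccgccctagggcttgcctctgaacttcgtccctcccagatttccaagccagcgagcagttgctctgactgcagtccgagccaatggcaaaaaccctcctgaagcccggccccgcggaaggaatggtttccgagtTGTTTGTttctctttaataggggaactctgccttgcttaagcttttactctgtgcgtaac

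Bdh1, chr16:31422047-31422296, plus strand: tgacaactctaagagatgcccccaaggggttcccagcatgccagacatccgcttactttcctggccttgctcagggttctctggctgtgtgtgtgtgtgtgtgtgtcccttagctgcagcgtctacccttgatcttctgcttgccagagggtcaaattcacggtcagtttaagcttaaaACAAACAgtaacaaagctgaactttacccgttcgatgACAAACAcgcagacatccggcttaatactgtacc

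In Bdh2 the word ACAAACA began 113 bases and the word GCAAACA 21 bases before the start. In Hsd17b11 the capitals are ACAAACA read on the other strand, and their first printed base lay 60 bases before the start. Bdh1 held ACAAACA at 71 and 34 bases before its upstream start. The word GTAAACA occurred in none of the member windows and in 3.17% of all windows. A word is a match of letters and not a measured binding site, and the word ACAAACA, present in 5.84% of windows, was shared by 2 genes that rose and by Bdh1, whose level did not pass.

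Of the 9 genes 2 passed an adjusted p of 0.05, Bdh2 and Hsd17b11, both higher in transgenic embryos. Over all genes 21 passed (0.105%), 13 of them upward (0.0652%); since this comparison chose the group, nothing is read from that contrast. The log2 differences of the 9 ran from -0.14 to 1.05 with a median of -0.0053, against a median of -0.0038 over all genes. By sign, 4 were higher and 5 lower.

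**Figure D1:**
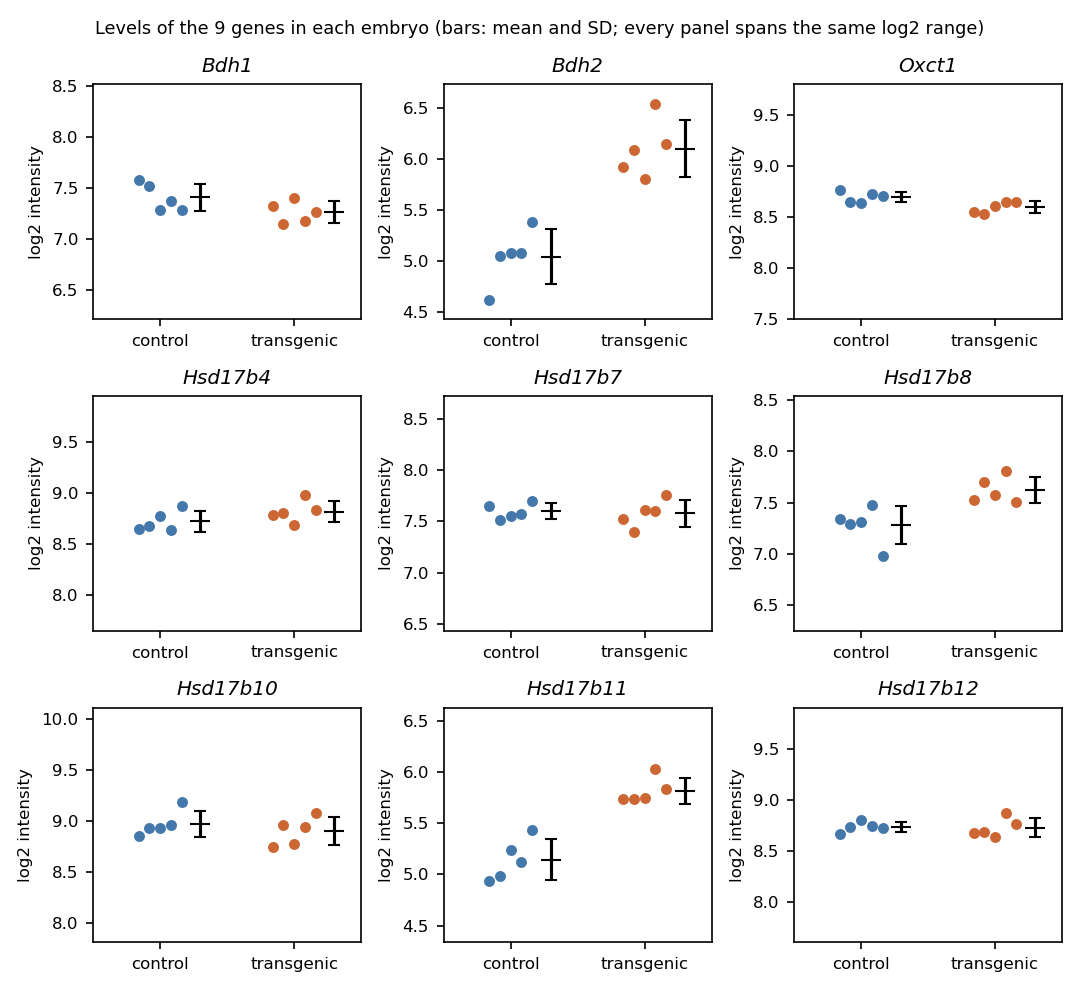
Log2 intensity (vertical axis) of each of the 9 genes in each embryo, with control embryos in blue, transgenic embryos in orange, points ordered by replicate number, and bars for the group mean and SD (n = 5 per group). The panels span ranges of equal size, and only Bdh2, Hsd17b8 and Hsd17b11 have all 5 transgenic points above all control points.

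Bdh2 (chromosome 3, 135281221 to 135304426) read 5.92, 6.08, 5.80, 6.54 and 6.14 in transgenic embryos 1 to 5. In control embryos 1 to 5 it read 4.62, 5.05, 5.08, 5.08 and 5.38. Every transgenic embryo was higher than every control, and the lowest transgenic value exceeded the highest control by 0.42. Bdh2 rose by 1.05 ± 0.15 in log2 units (SE over 5 and 5 embryos), or 2.08-fold (limma adjusted p = 0.0222), with a 95% interval of 0.73 to 1.38. It was among the most variable genes within groups, with a within-group SD of 0.28 at the 94.3rd percentile of all genes.

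The size of the Bdh2 difference was stable, while its adjusted p was not. Leaving out 1 embryo at a time gave 0.95 to 1.14. The adjusted p lay between 0.0516 and 0.0843 without transgenic embryo 1, 2 or 5 or control embryo 1, 2 or 3. It lay between 0.00821 and 0.0330 without transgenic embryo 3 or 4 or control embryo 4 or 5. With the border marker mean as a covariate the difference was 1.34 (adjusted p = 0.0912), and with the neuron marker mean it was 1.2 (adjusted p = 0.000899).

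Bdh1, the mitochondrial relative (chromosome 16, 31422297 to 31458901), showed no such rise. It read 7.32, 7.15, 7.41, 7.17 and 7.27 in transgenic embryos 1 to 5 and 7.58, 7.52, 7.28, 7.38 and 7.29 in the controls. The groups overlapped, with 3 of 5 transgenic embryos below all controls. The difference was -0.14 ± 0.075, with a 95% interval of -0.31 to 0.020 (adjusted p = 0.720). It was -0.20 with the border and -0.21 with the neuron marker covariate, neither passing.

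Oxct1, which commits acetoacetate to oxidation (chromosome 15, 4026428 to 4155344), was the steadiest member. It read from 8.53 to 8.65 in transgenic and from 8.64 to 8.77 in control embryos, and 3 transgenic embryos lay below all controls. The within-group SD was 0.054, at the 3.59th percentile of all genes. The difference was -0.099 ± 0.050, with a 95% interval of -0.21 to 0.011 (adjusted p = 0.708). Within the ketone body group, the cytosolic enzyme was thus higher and the means of both mitochondrial enzymes were slightly lower without passing.

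Hsd17b11, the lipid droplet protein (chromosome 5, 103989765 to 104021796), read 5.74, 5.74, 5.75, 6.04 and 5.84 in transgenic embryos 1 to 5. The controls read 4.93, 4.99, 5.24, 5.12 and 5.44. Again no transgenic embryo overlapped the controls, with a gap of 0.30. Hsd17b11 rose by 0.67 ± 0.098 in log2 units (SE over 5 and 5 embryos), or 1.6-fold (limma adjusted p = 0.0247), with a 95% interval of 0.46 to 0.89. Its within-group SD of 0.17 lay at the 77.8th percentile.

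Leaving out 1 embryo at a time gave 0.62 to 0.75 for Hsd17b11. Its adjusted p was 0.00576 without control embryo 5 and 0.0391 without control embryo 4. Without any one of the other 8 embryos, transgenic embryos 1 to 5 and control embryos 1 to 3, it was between 0.0537 and 0.0920. With the border marker mean as a covariate the difference was 0.85 (adjusted p = 0.131). With the neuron marker mean it was 0.78 (adjusted p = 0.000899).

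Hsd17b8 (H2-Ke6; chromosome 17, 34026033 to 34028055) was the third member whose groups did not overlap. It read 7.52, 7.70, 7.57, 7.81 and 7.51 in transgenic and 7.34, 7.29, 7.31, 7.47 and 6.98 in control embryos 1 to 5. The gap between the groups was only 0.033, and the lowest control was embryo 5. The difference was 0.34 ± 0.092, with a 95% interval of 0.14 to 0.55 (adjusted p = 0.293), and did not pass. It was 0.27 without control embryo 5 and 0.18 with the border marker covariate. Complete separation upward was seen in 3 of the 9 members and in 0.978% of all genes, or 1.6% counting both directions, and here too nothing is read from the share.

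The other 4 Hsd17b genes had overlapping groups, and none passed. Hsd17b4, the peroxisomal enzyme (chromosome 18, 50128201 to 50196270), read 8.69 to 8.98 in transgenic and 8.63 to 8.88 in control embryos, a difference of 0.096 ± 0.068 with a 95% interval of -0.053 to 0.24. The Hsd17b4 difference was 0.25 with the border and 0.16 with the neuron marker covariate and 0.055 without transgenic embryo 4, so its size was not settled, and it passed in none of these fits. Hsd17b7, of cholesterol synthesis (chromosome 1, 169949535 to 169969242), read 7.39 to 7.76 in transgenic and 7.51 to 7.70 in control embryos, a difference of -0.022 ± 0.071 with an interval of -0.18 to 0.13. The transgenic values enclosed the control values for Hsd17b7.

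Hsd17b10, the X-linked mitochondrial enzyme (152001896 to 152004442), read 8.74 to 9.08 in transgenic and 8.85 to 9.18 in control embryos, a difference of -0.071 ± 0.080 with an interval of -0.25 to 0.10. Hsd17b12, of the endoplasmic reticulum (chromosome 2, 94032697 to 94157909), read 8.64 to 8.87 in transgenic and 8.66 to 8.80 in control embryos, a difference of -0.0053 ± 0.057 with an interval of -0.13 to 0.12. Signs turned with the processing for 3 of these genes: Hsd17b7 turned to 0.025 without transgenic embryo 2 and to 0.0043 without control embryo 5, Hsd17b10 to 0.087 with the border covariate, and Hsd17b12 to 0.017 without transgenic embryo 3.

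**Figure D2:**
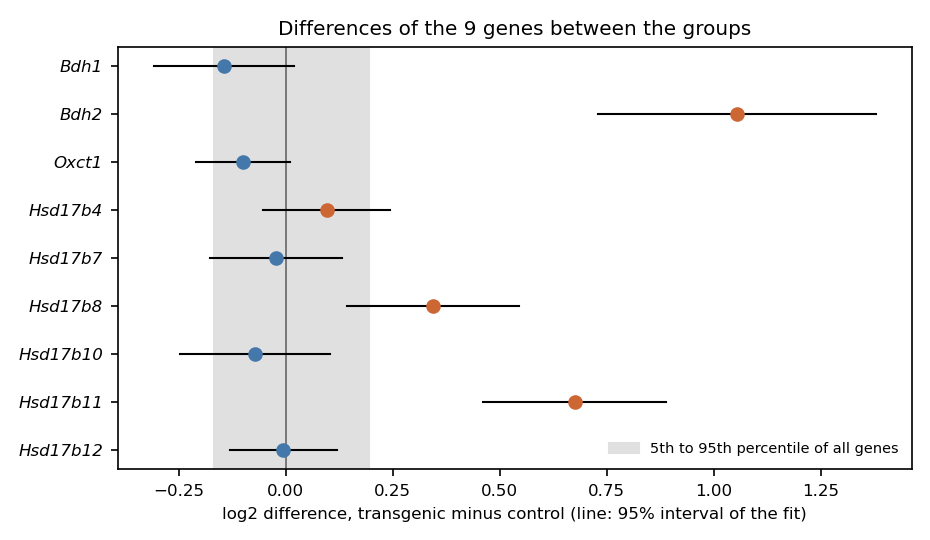
Log2 difference between transgenic and control embryos (horizontal axis) for each gene, with the 95% interval of the limma fit as a line (n = 5 per group) and the 5th to 95th percentile of all genes, -0.17 to 0.19, as a grey band. Bdh2 at 1.05, Hsd17b11 at 0.67 and Hsd17b8 at 0.34 lie outside the band, and the other 6 points lie inside it.

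A question that does not use the difference between groups is which members varied together from embryo to embryo. Each value was expressed as its deviation from the mean of its own group, and the 36 pairs of members were correlated over the 10 arrays with exact permutation within groups (two-sided). Deviations of Bdh2 and Hsd17b11 went together, with Pearson's r = 0.86 (exact p = 0.00139, adjusted over 36 pairs 0.0467) and Spearman's rho = 0.83 (exact p = 0.00299, adjusted 0.107), and r was 0.75 without the 2 arrays farthest out on Bdh2. Hsd17b4, which did not pass between the groups, went with both. Its r with Bdh2 was 0.87 (exact p = 0.00354, adjusted 0.0467; rho = 0.73, exact p = 0.0255, adjusted 0.168), and 0.84 without the 2 farthest arrays.

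Its r with Hsd17b11 was 0.87 (exact p = 0.00389, adjusted 0.0467; rho = 0.68, exact p = 0.0488, adjusted 0.168), and 0.59 without the 2 farthest arrays. All 3 pairs passed after adjustment by Pearson's r, and none did by rank. An r of this size was not particular to the members, since 50 genes exceeded 0.9 with Bdh2 and 43 with Hsd17b11. Genes with clone names, such as those ending in Rik, were not counted. How often pairs of other genes would pass was not tested. Control embryo 5 and transgenic embryo 4 were high in all 3 genes, and control embryo 1 and transgenic embryo 3 were low in all 3. Over fits that left out 1 embryo r stayed between 0.78 and 0.94 for the 3 pairs, but their calls were mostly lost. All 3 pairs passed without transgenic embryo 2 or control embryo 4, and no pair of members passed without transgenic embryo 1, 3, 4 or 5 or control embryo 1, 2 or 3. Without control embryo 5, the array that stood apart, none of the 3 passed: the adjusted p was 0.05 for Bdh2 with Hsd17b11 and 0.113 for Hsd17b4 with each of them. The 4 pairs that passed without it were other ones, Hsd17b12 with Bdh2 (r = 0.93), with Hsd17b4 (r = 0.93) and with Hsd17b11 (r = 0.91), and Oxct1 with Hsd17b7 (r = 0.80). With quantile normalization 0 pairs passed.

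**Figure D3:**
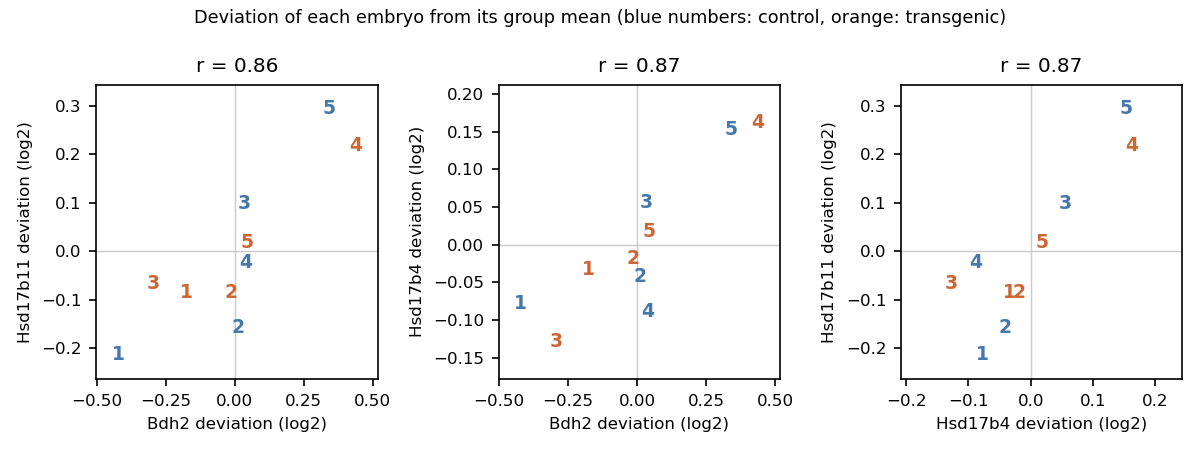
Deviation of each embryo from its own group mean, in log2 units on both axes, for Bdh2 against Hsd17b11, Bdh2 against Hsd17b4, and Hsd17b4 against Hsd17b11; numbers are replicate numbers, blue for control and orange for transgenic. Control embryo 5 and transgenic embryo 4 sit at the upper right in each panel, and Pearson's r is 0.86, 0.87 and 0.87.

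Bdh1 ran against its cytosolic relative. Its deviations had r = -0.77 with those of Bdh2 (exact p = 0.00889, adjusted 0.064; rho = -0.66, exact p = 0.0437, adjusted 0.168), which weakened to -0.52 without the 2 arrays farthest out on Bdh1 and did not pass. Hsd17b8, the third gene with separated groups, did not follow the others: its r was -0.036 with Bdh2 and -0.28 with Hsd17b11. Oxct1 had r = 0.0091 with Bdh2 and 0.12 with Hsd17b11.

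The same deviations were set against the means of the neuron, radial glia, border and mesenchyme markers, 36 relations in all. None passed after adjustment by the exact permutation test (smallest adjusted p = 0.125), and 9 had an unadjusted p below 0.05. Neuron marker deviations had r = -0.72 with Bdh2 (exact p = 0.0424, adjusted 0.169; rho = -0.61, exact p = 0.0693), -0.79 with Hsd17b11 (exact p = 0.0142, adjusted 0.129; rho = -0.61, exact p = 0.108) and -0.81 with Hsd17b4 (exact p = 0.00347, adjusted 0.125; rho = -0.85, exact p = 0.00271). Without the 2 arrays farthest out on the neuron markers these became -0.39, -0.28 and -0.55, so the relations of Bdh2 and Hsd17b11 rested largely on those arrays.

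Bdh1 had the opposite sign with the neuron markers, with r = 0.70 (exact p = 0.0251, adjusted 0.129; rho = 0.70, exact p = 0.0528) and 0.70 without the 2 farthest arrays. Hsd17b10 had r = -0.76 with the neuron markers (exact p = 0.0336, adjusted 0.151; rho = -0.68, exact p = 0.0333), and -0.58 without the 2 farthest arrays.

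Mesenchyme markers gave relations of like size with the opposite signs for Hsd17b11, Hsd17b4 and Bdh1, and weaker ones for Bdh2 and Hsd17b10. Their r was 0.79 with Hsd17b11 (exact p = 0.0216, adjusted 0.129; rho = 0.61, exact p = 0.126), 0.71 with Hsd17b4 (exact p = 0.0190, adjusted 0.129; rho = 0.61, exact p = 0.0791) and -0.75 with Bdh1 (exact p = 0.0158, adjusted 0.129; rho = -0.83, exact p = 0.0144). Without the 2 arrays farthest out on the mesenchyme markers they were 0.44, 0.49 and -0.75. For Bdh2 the mesenchyme r was 0.63 (exact permutation p = 0.0758, adjusted 0.258), and 0.24 without those arrays. For Hsd17b10 the mesenchyme r was 0.58 (exact permutation p = 0.0931, adjusted 0.258), and 0.033 without those arrays. Border markers had r = -0.73 with Hsd17b4 (exact p = 0.0166, adjusted 0.129; rho = -0.66, exact p = 0.0575), and -0.57 without the 2 farthest arrays. The part of neuron, mesenchyme or border tissue in the variation of these genes from embryo to embryo was not tested. Between the groups, neuron marker means were higher on average in transgenic embryos by 0.31, or by 0.089 without control embryo 5.

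The genes whose deviations were most like those of Bdh2 over the 10 arrays were Tbc1d15 (r = 0.97), Nap1l1 (r = 0.96) and Aifm1 (r = 0.96). For Hsd17b11 they were Heatr3 (r = 0.97), Wrn (r = 0.96) and Park7 (r = 0.95). These are descriptions drawn from the 19938 genes, less those with clone names, over 10 arrays that share tissue makeup. Among the genes so kept, 50 exceeded an r of 0.9 with Bdh2 and 43 with Hsd17b11. None of the 6 genes named passed between the groups in limma (smallest adjusted p = 0.680), with differences from -0.15 to -0.0022.

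None of the genomic neighbours of the 2 genes that rose passed in limma (smallest adjusted p = 0.780). Cenpe and Slc9b2, the nearest measured genes on either side of Bdh2 in the RefSeq order, had differences of -0.18 ± 0.11 and 0.0019 ± 0.060. Hsd17b13, the closely related neighbour of Hsd17b11, had a difference of -0.092 ± 0.065, and Nudt9 on the other side had -0.059 ± 0.082. Next to Hsd17b8 the zinc transporter gene Slc39a7 had non-overlapping groups, at 0.16 ± 0.051 (adjusted p = 0.461). Next to Hsd17b7, itself at -0.022, the gene Ccdc190 rose by 0.60 ± 0.071 (adjusted p = 0.00759); it was the only one of the 18 neighbours that passed in limma.

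Partner genes were counted in 12 pathway lists holding 159 measured genes besides the members. In the all-gene limma fit 1 of the 159 passed, Abcd2 upward, against 0.105% of all genes, and 10 had an unadjusted p below 0.05, against 7.58% of all genes. Their median log2 difference was -0.012, against -0.0038 over all genes, with 68 higher and 91 lower.

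The ketone body list held 9 measured genes, of which 2 were higher and 7 lower, with a median of -0.052 and none passing. The median was -0.11 without transgenic embryo 2 and also without control embryo 4. The monocarboxylate transporter Slc16a1, which carries ketone bodies and lactate, had -0.35 ± 0.14 (adjusted p = 0.598), the mitochondrial thiolase Acat1 -0.18 ± 0.075 (adjusted p = 0.617), and Slc16a3 -0.17 ± 0.12. In the iron list, fixed because of the siderophore studies on Bdh2, 6 of 14 genes were higher and none passed (smallest adjusted p = 0.796), and the list median of -0.022 became 0.018 without dim genes, 0.020 without control embryo 5 and 0.012 with the neuron marker covariate. The genes nearest to passing had log2 differences that were small, with Ftl1, the ferritin light chain, at 0.092, Slc25a28 at -0.067 and the iron importer Slc11a2 at 0.052.

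Among 14 genes of peroxisomal beta-oxidation, the pathway of Hsd17b4, Abcd2 alone passed. Abcd2, a transporter of very-long-chain fatty acids into peroxisomes, ranged from 8.05 to 8.2 in transgenic and from 7.51 to 7.82 in control embryos, so the groups did not overlap. It rose by 0.43 ± 0.067 (adjusted p = 0.0374). The call was kept without control embryo 4 (adjusted p = 0.0255) or 5 (0.0389) and lost without any one of the other 8 embryos (0.0645 to 0.125), where the difference was 0.41 to 0.46. With the border marker covariate the difference was 0.27 (adjusted p = 0.945), so the call ended and the value fell below the reported one by over 1.5 times. The remaining genes of the list stayed between -0.13 for Ehhadh and 0.14 or less, with Hacl1 at 0.13, and the list median was 0.036.

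Lipid droplet genes, the setting of Hsd17b11, had a median of 0.033 over 19 genes, with 11 higher and none passing. The droplet coat gene Plin2 was at 0.16 ± 0.088 (adjusted p = 0.742), the lipase Lipe at -0.086 and the triglyceride synthase Dgat1 at 0.093. None of the 6 remaining Hsd17b genes passed, with a median of -0.0081, or -0.093 with the border marker covariate; Hsd17b2 was at -0.19 ± 0.075 (adjusted p = 0.597) and Hsd17b14 at 0.027. Over 28 further short-chain dehydrogenases the median was 0.0072, with 14 higher and 14 lower. Hsd11b2, which inactivates glucocorticoids, had non-overlapping groups at 0.44 ± 0.10 (adjusted p = 0.175), Dhrs4 was at -0.28 ± 0.089 (adjusted p = 0.443) and Rdh13 at 0.15, and none of the 28 passed.

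No gene passed in the lists around the remaining members. Medians were -0.043 for 18 genes of branched-chain amino acid breakdown and -0.065 for 6 genes of mitochondrial RNase P and tRNA processing, both tied to Hsd17b10. With the border marker covariate the RNase P median turned to 0.074. Examples were Hibadh at 0.18 (adjusted p = 0.627), Bckdhb at -0.16 and Slirp at -0.11. For 11 genes of cholesterol synthesis, around Hsd17b7, the median was -0.030, with Ebp at 0.13 and Tm7sf2 at 0.10.

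Elongation of very-long-chain fatty acids, around Hsd17b12, had a median of -0.011 over 13 genes, with Elovl7 at -0.23 ± 0.088 (adjusted p = 0.562) and the carboxylase Acaca at -0.14. Mitochondrial fatty acid synthesis, around Hsd17b8, had a median of -0.021 over 9 genes, with Mcat at -0.21 ± 0.081 (adjusted p = 0.594) and Ndufab1 at -0.10. Its partner subunit gene Cbr4 was at 0.065 ± 0.13. Steroid synthesis and receptor genes had a median of -0.029 over 13 genes, which turned to 0.081 with the border marker covariate; Cyp17a1 was at 0.12 and Hsd3b6 at -0.70 ± 0.36 (adjusted p = 0.714), the latter with overlapping groups from 4.81 to 6.40 and from 5.43 to 6.95.

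**Figure D4:**
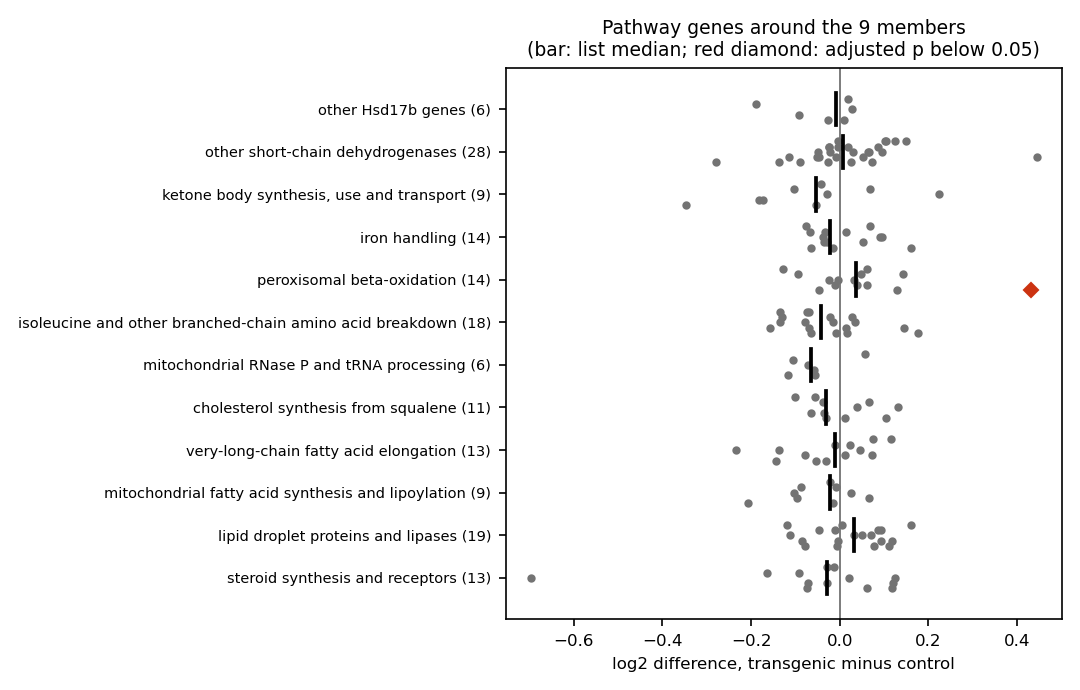
Log2 difference between transgenic and control embryos (horizontal axis) for each measured gene of the 12 pathway lists, with the number of genes in parentheses, a black bar for the list median and a red diamond for a gene with an adjusted p below 0.05. Abcd2 at 0.43 is the only diamond, and the medians lie between -0.065 and 0.036.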

How the data were processed

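One array per embryo was analysed for 5 transgenic and 5 control forebrains, grouped by sample title. The authors deposited log2 intensities for 35556 probe sets and the submitters' processing notes name Affymetrix Expression Console; its version, algorithm and background correction are not given in the sources used here. The values were used unchanged. Of the probe sets 21789 named 1 gene (symbols brought up to date through RefSeq gene identifiers of GRCm38.p6, 21698 matched), 1621 several and 12146 none. Where a gene had several, the brightest on average stood for it, leaving 19938 genes.

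The contrast was fitted in R 4.3.3 by limma 3.58.1 (group only, empirical Bayes; two-sided p-values adjusted by Benjamini-Hochberg across every gene, called under 0.05); intervals use the fit's 11.9 degrees of freedom. The fit and the permutation test were checked on simulated data with independent noise. Shared tissue makeup, litter and an outlying embryo were not simulated, so the check does not cover them. Nothing says that embryos are independent of litter, and the number of arrays limits the precision. Members, gene lists and tests were chosen with earlier results of these data known. Genes named were the members, Foxo3, and in each list those passing and up to 3 with the smallest p. The nearest measured neighbours and the 3 genes most similar to Bdh2 and Hsd17b11, genes with clone names left out, were named as well. Emx1, Emx2, Dlx2, Six3 and Cbr4 were added after values were seen. Replicate numbers were not treated as pairs in the main fit. Same-number embryos had deviations correlated from -0.25 to 0.24 over genes, above 0.1 in 1 of 5 cases, which cannot exclude a pairing. Alternatives were a replicate block, leaving out each embryo, other variance models and weights, quantile normalization, median centring, a filter on dim genes, the mean of all probe sets, covariates for border, neuron and mesenchyme markers and for Xist, and a threshold of 0.1.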

Additional observations from a re-analysis of the deposited data

Results flagged for a closer look

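In control embryo 5 the mean of the 16 neuron markers was 7.47, far below the other 4 controls at 8.41 to 8.68. Of 34 groups of 5 values examined in this way (the 9 members, Foxo3 and 7 marker lists in each group) it was the only one marked. Chance would mark about 1 in 20, but the 34 groups share the same embryos and are not independent. The count of marks therefore cannot decide whether this embryo differs by chance. Among the controls it had the lowest neuron, radial glia and border means. It also had the highest mesenchyme, erythroid, endothelium and microglia means. The mesenchyme marker mean of the same embryo was not marked. Without this embryo Bdh2 was 1.14 and Hsd17b11 0.75 higher in transgenic embryos on the log2 scale.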

How the results depend on the processing

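The 22 alternatives left the sign of Bdh2, Hsd17b11, Hsd17b8, Hsd17b4, Bdh1 and Oxct1 unchanged, with Bdh2 between 0.95 and 1.34 and Hsd17b11 between 0.62 and 0.85. With the replicate number as a block, 2 genes passed instead of 21, and 0 members and 0 pathway genes did; Bdh2 stayed at 1.05 and Hsd17b11 at 0.67 (adjusted p = 0.0947 for both). Same-number embryos stood next to each other in the deposited order, and the labels do not say what else they share. Of 5 transgenic embryos 0 had their same-number control as the closest match, but 5 cases are too few to exclude a pairing. With the border marker covariate 4 genes, 0 members and 0 pathway genes passed, with Bdh2 at 1.34 and Hsd17b11 at 0.85. The number of passing genes was 39 with array weights, 94 with the neuron and 125 with the mesenchyme covariate, and 55 at a threshold of 0.1; passing pathway genes were 0 with median centring and with the Xist covariate. Leaving out 1 embryo gave 7 to 58 passing genes, 0 to 2 members, 0 to 1 pathway genes, differences of 0.95 to 1.14 for Bdh2 and 0.62 to 0.75 for Hsd17b11, 0 to 6 passing pairs of members and 0 to 1 passing relations with marker lists. With quantile normalization 0 pairs and 1 marker relation passed. Signs turned for Hsd17b7 (0.048 with the border covariate; -0.068 to 0.025 without 1 embryo), Hsd17b10 (0.087 with the border and 0.0056 with the neuron covariate) and Hsd17b12 (0.00081 with quantile normalization, 0.031 with the border and 0.012 with the neuron covariate; -0.042 to 0.017 without 1 embryo). Fewer samples are part of each fit that left out 1 embryo; the cause of the other changes was not tested. The list of the remaining Hsd17b genes has no median without dim genes, since none of its genes passed that filter.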
